A study of Sus scrofa with 11 samples.

Results

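The genes described are ubiquitin conjugating enzymes (symbols starting with UBE2), ubiquitin-specific proteases (USP followed by a digit) and genes of F-box proteins without (FBXO) or with (FBXL) leucine-rich repeats. Members were the probe sets, the array features that each measure a transcript, with a single gene symbol of one of these forms in the platform annotation. They numbered 103 of 27558 probe sets and stood for 92 genes, with 23 probe sets in the UBE2 class, 36 in the USP class, 28 in the FBXO class and 16 in the FBXL class. USP6NL carried a USP symbol without being a protease of this kind and was kept by the rule. A further 8 probe sets that carried one of these symbols beside others were not members.

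The tissue was left ventricle from the ischemic zone of male Yorkshire pigs, all with an ameroid constrictor, a ring that slowly closes a vessel, on the left circumflex coronary artery. Feeding lasted 12 weeks, on a diet either normal (ND) or high in fat (HFD), and the ischemic muscle received an injection of vehicle or of EV, taken here as extracellular vesicles, small membrane-bound particles that cells shed. Tissue was taken 5 weeks after the injection. The groups were ND with vehicle (3 arrays), ND+EV (3), HFD with vehicle (2) and HFD+EV (3), called biological replicates in the titles, with no animal named for any array. All groups thus shared the constrictor and an injection, and a heart without either was not analysed here.

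Ubiquitin is a small protein that cells attach to other proteins, often to send them to the proteasome for breakdown. An activating enzyme (E1) passes ubiquitin to a conjugating enzyme (E2, most UBE2 genes), and a ligase (E3) selects the protein that receives it; F-box proteins are the part of SCF ligases that recognises the target, and USP enzymes take ubiquitin off again. In heart and skeletal muscle this pathway turns over contractile proteins, and the F-box protein of FBXO32 (atrogin-1) is a known mark of muscle wasting.

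Values are deposited log2 signals, so a difference of 1 is a doubling, and groups are compared only within the same probe set. Array medians lay between 4.36 and 4.48. ND replicate 1 and ND replicate 3 had the lowest mean correlation with the other arrays (0.946 and 0.952, against 0.965 to 0.972 for the rest). Ranks across probe sets by mean signal serve only as a rough description of the tissue. Of 7 cardiomyocyte markers, MYH7, MYL2, MYL3 and ACTC1 lay at or above percentile 99.9 of all probe sets. PLN was the lowest, at 84.4, and the fibroblast marker DCN was also at 99.9. In bulk tissue, fewer cells of a type and less RNA per cell cannot be told apart. Precision was limited by having 2 or 3 arrays a group.

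Of the 103 members, 90 had a mean signal above the lowest 25% of all probe sets (3.63) and were tested, 22 of them UBE2, 32 USP, 22 FBXO and 14 FBXL. The 13 below it were UBE2U, USP26, USP44, USP50, USP51, FBXO5, FBXO10, FBXO15, FBXO16, FBXO36, FBXO43, FBXL8 and FBXL22. Class medians and counts of direction use all members. Probe sets for FBXL7, FBXL19 and FBXO2 came in pairs with identical values, so the 103 probe sets held 100 distinct measurements.

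The classes were set side by side first. The class level of an array is the mean over a class of the log2 signal minus that probe set's mean over all arrays. For UBE2 it was -0.41, -0.16 and -0.16 in ND, -0.06, 0.10 and 0.03 in ND+EV, 0.23 and 0.27 in HFD, and -0.17, 0.15 and 0.18 in HFD+EV. Both HFD arrays were thus above every other array, the ND arrays were at or near the bottom, and HFD+EV replicate 1 lay next to ND replicates 2 and 3. For USP the levels were 0.03, -0.05 and -0.21 in ND, -0.05, -0.01 and -0.07 in ND+EV, 0.08 and 0.07 in HFD, and 0.07, 0.07 and 0.06 in HFD+EV. All 5 arrays of the high fat diet lay above all 6 of the normal diet in this class, by little against the spread of the ND arrays. The FBXO level stayed between -0.03 and 0.03 on all 11 arrays. The FBXL level ran from -0.10 in ND replicate 3 to 0.12 in HFD+EV replicate 2. Both HFD arrays (0.05) lay above all ND and ND+EV arrays, the highest of which was ND replicate 2 at 0.01, while HFD+EV overlapped every other group. No test was run on these levels.

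**Figure D1:**
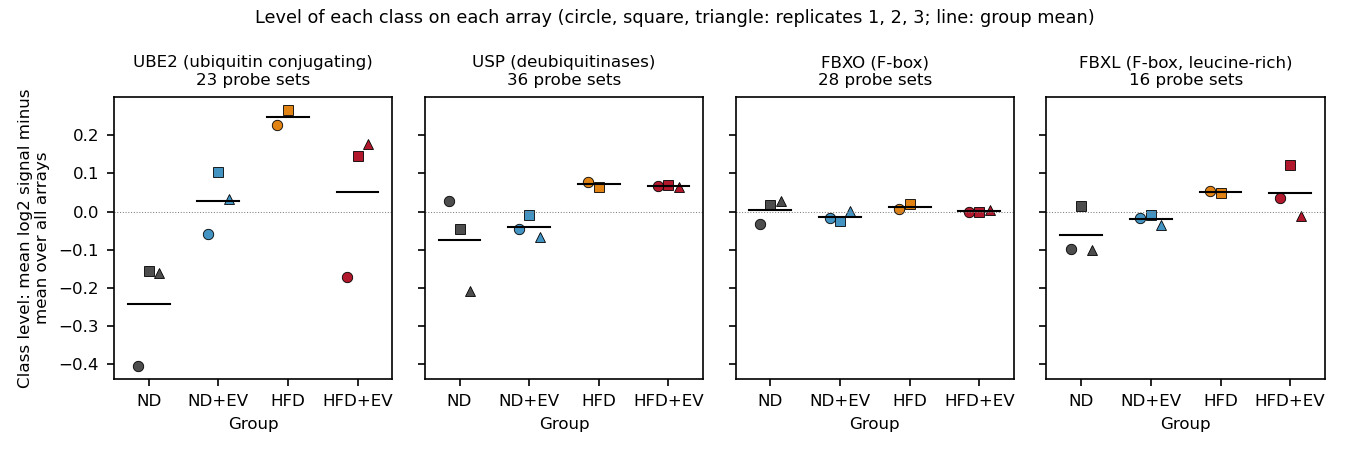
Class level per array (mean log2 signal of a class minus its mean over all arrays) for the 4 groups, with 1 point an array, a different symbol for each replicate number and a line at the group mean. The UBE2 class spread most, from -0.41 in ND replicate 1 to 0.27 in HFD replicate 2, and the FBXO class least, from -0.03 to 0.03.

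HFD was compared with ND for the diet in hearts that received vehicle. The UBE2 class stood highest: 19 of its 23 probe sets were higher in HFD, with a median log2 difference of 0.52. UBE2W and UBE2B rose. In USP 26 of 36 were higher (median 0.14), in FBXO 13 of 28 (-0.02) and in FBXL 8 of 16 (0.04). Over all 27558 probe sets 40.6% were higher (median -0.07). Over those with 1 symbol, as members have, it was 47% (median -0.02). By limma, 2 of the 90 members tested passed an adjusted p of 0.05, both higher, beside 0.735% of all 20668 probe sets tested (0.513% higher and 0.223% lower). At an unadjusted p under 0.05 there were 23 members, 21 of them higher, beside 24.0% of all probe sets (13.6% higher and 10.4% lower). All 10 such UBE2 members were higher, as were 5 of 6 in USP, 3 of 3 in FBXO and 3 of 4 in FBXL.

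UBE2W (probe set 15278823) codes for a conjugating enzyme known for attaching ubiquitin to the amino end of proteins. Its signal was 4.68, 4.64 and 4.81 in ND and 5.73 and 5.87 in HFD. Both HFD arrays lay above all other arrays of the study, which reached 5.31 in HFD+EV replicate 3. The log2 difference was 1.09 ± 0.18 (SE), a 2.13-fold rise (limma adjusted p = 0.0471).

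UBE2B (probe set 15266762) codes for a RAD6 enzyme that works in DNA repair and in the ubiquitination of histones. It read 4.35, 5.33 and 4.15 in ND and 6.19 and 6.58 in HFD. The groups did not overlap, but ND replicate 2 was about 1 log2 unit above the other ND arrays (SD 0.63, n = 3). UBE2B rose 3.43-fold, a log2 difference of 1.78 ± 0.34 (SE), with a limma adjusted p of 0.0492.

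Both calls sat close to the threshold. Neither passed without ND replicate 1 (limma adjusted p = 0.111 for UBE2W and 0.122 for UBE2B), without ND replicate 3 (0.0551 and 0.0659), without HFD replicate 1 (0.127 and 0.129) or without HFD replicate 2 (0.263 and 0.265). No member and no probe set passed without any 1 ND+EV array, without HFD+EV replicate 2 or without HFD+EV replicate 3. Without ND replicate 2, 5 members passed beside 1353 of all probe sets. Without HFD+EV replicate 1, 4 members passed beside 721, against 152 probe sets with all arrays. UBE2W kept its size (1.02 to 1.16 over these leave-outs of ND and HFD arrays), and UBE2B was at 1.06 when ND replicates 1 and 3 were both left out.

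Other conjugating enzymes were higher in HFD without passing. UBE2L3, which serves HECT and RBR ligases such as parkin, had 8.24, 8.76 and 8.98 in ND and 9.49 and 9.44 in HFD (log2 difference 0.80 ± 0.20 SE, limma adjusted p = 0.0698). The difference was 0.70 ± 0.16 for UBE2Q1 (adjusted p = 0.0632), 0.91 ± 0.23 for UBE2E3 (0.0746), and 0.77 ± 0.20 for UBE2J1, an enzyme of the endoplasmic reticulum that helps to clear misfolded proteins (0.0750). In each of these 4 both HFD arrays lay above the 3 ND arrays. Such separation was seen for 12 UBE2 probe sets with HFD higher and 1 with HFD lower, beside 15.2% and 21.9% of all probe sets. The USP class had 9 and 2, FBXO 4 and 5, and FBXL 5 and 1.

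The UBE2D family, enzymes that work with a wide range of ligases, had 4 of 4 members higher in HFD (median 0.63), none past the adjusted threshold. UBE2D3 had 5.76, 6.22 and 6.10 in ND and 7.90 and 7.13 in HFD, without overlap (log2 difference 1.49 ± 0.43 SE, limma adjusted p = 0.0846). UBE2D4 had 5.85, 7.17 and 7.43 in ND and 7.65 and 7.40 in HFD, a difference of 0.71 with overlap, in which ND replicate 1 was the low array. UBE2D1 differed by 0.55 and UBE2D2 by 0.15.

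UBE2K and UBE2G1, which build chains that mark proteins for the proteasome, differed by 0.55 ± 0.15 and 0.66 ± 0.19 (SE; limma adjusted p = 0.0787 and 0.0837). UBE2N, the enzyme that makes lysine-63 chains in signalling, differed by 0.44, and ND replicate 1 was low there as well (5.85, against 6.48 and 6.60 in the other ND arrays). UBE2C, which serves the anaphase-promoting complex, had a difference of -0.12, and UBE2T, an enzyme of DNA crosslink repair, 0.28. The probe sets of UBE2J1 disagreed, with 0.77 for 15193187 and -0.40 for 15193166.

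**Figure D2:**
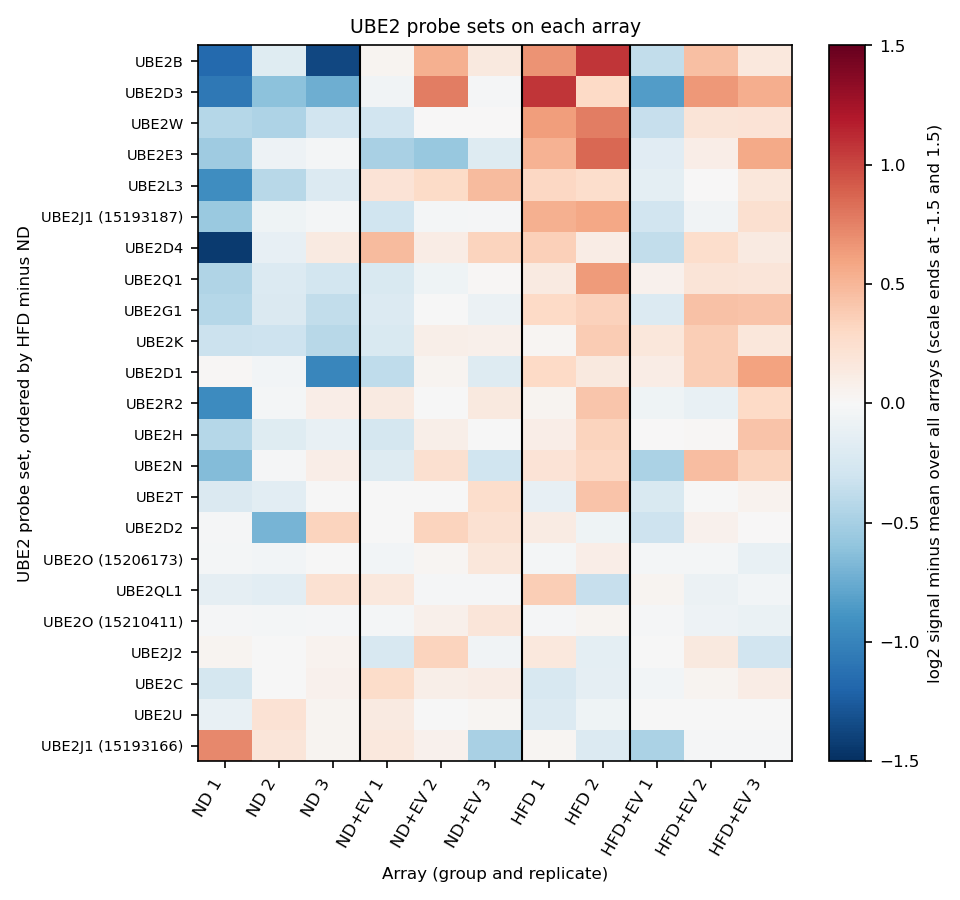
Log2 signal of the 23 UBE2 probe sets on each of the 11 arrays minus the probe set's mean over all arrays (colour, ending at -1.5 and 1.5), ordered by HFD minus ND. The upper rows are low in the ND arrays and high in both HFD arrays, and HFD+EV replicate 1 is low in UBE2D3 and UBE2B where HFD+EV replicates 2 and 3 are not.

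Among the ubiquitin-specific proteases no member passed in HFD against ND. USP15, which acts in TGF-beta signalling, had 6.89, 6.53 and 5.68 in ND and 7.09 and 7.13 in HFD (log2 difference 0.74 ± 0.30 SE, limma adjusted p = 0.165). The groups did not overlap, and the difference was 0.40 without ND replicate 3, the lowest array. USP10 differed by 0.59 ± 0.20 (adjusted p = 0.115). USP4 differed by 0.38 ± 0.13 (0.115) in probe set 15219987 and by -0.08 in the other one.

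USP30 of the mitochondrial outer membrane, which opposes the removal of mitochondria, had 6.75, 6.28 and 6.05 in ND and 6.47 and 6.23 in HFD, with overlap. USP19, anchored in the endoplasmic reticulum, differed by 0.12, USP13 by 0.15 and USP7, which acts on p53 and MDM2, by 0.22. USP20, which acts on beta-adrenergic receptors, was the protease with the lowest value, at -0.54 (4.67, 4.59 and 4.88 in ND, 4.16 and 4.20 in HFD, no overlap). It did not pass the adjusted threshold.

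F-box genes of muscle were mixed. FBXO32 had 6.85, 6.96 and 7.44 in ND and 7.79 and 7.57 in HFD, all HFD values above the ND values (log2 difference 0.60 ± 0.22 SE, limma adjusted p = 0.139). FBXO40, a muscle-restricted gene whose product targets an insulin receptor substrate, had 6.61, 6.85 and 6.73 in ND and 7.21 and 7.09 in HFD, without overlap (0.42 ± 0.17 SE, limma adjusted p = 0.165). FBXO30, another gene of muscle wasting, read 5.24, 5.19 and 5.11 in ND and 5.0 and 5.34 in HFD. FBXO30 (-0.01) and FBXO21 (-0.12) thus differed by less than the spread of their arrays, and FBXL22, a gene of heart and skeletal muscle, was below the filter on low signal (3.54, 3.46 and 3.47 in ND, 3.92 and 3.47 in HFD).

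Of the F-box genes tied to mitochondria, FBXL4 differed by 0.51 ± 0.25 (SE) and FBXO7, a partner of parkin, by 0.47 ± 0.24 (limma adjusted p = 0.235 and 0.255), both with overlap. FBXL5, the iron sensor of its class, differed by 0.22 ± 0.14. FBXO9 differed by 0.39 ± 0.14 (adjusted p = 0.132) and FBXL7 by 0.44 ± 0.18 (0.165). FBXL17 gave opposite results, with 0.77 ± 0.25 in probe set 15266306 (adjusted p = 0.109) and -0.35 ± 0.15 in probe set 15266315 (0.185). The 2 FBXO2 probe sets, for an F-box protein that binds sugar chains, had -0.27, and the sugar-binding group as a whole had 2 of 4 genes higher.

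**Figure D3:**
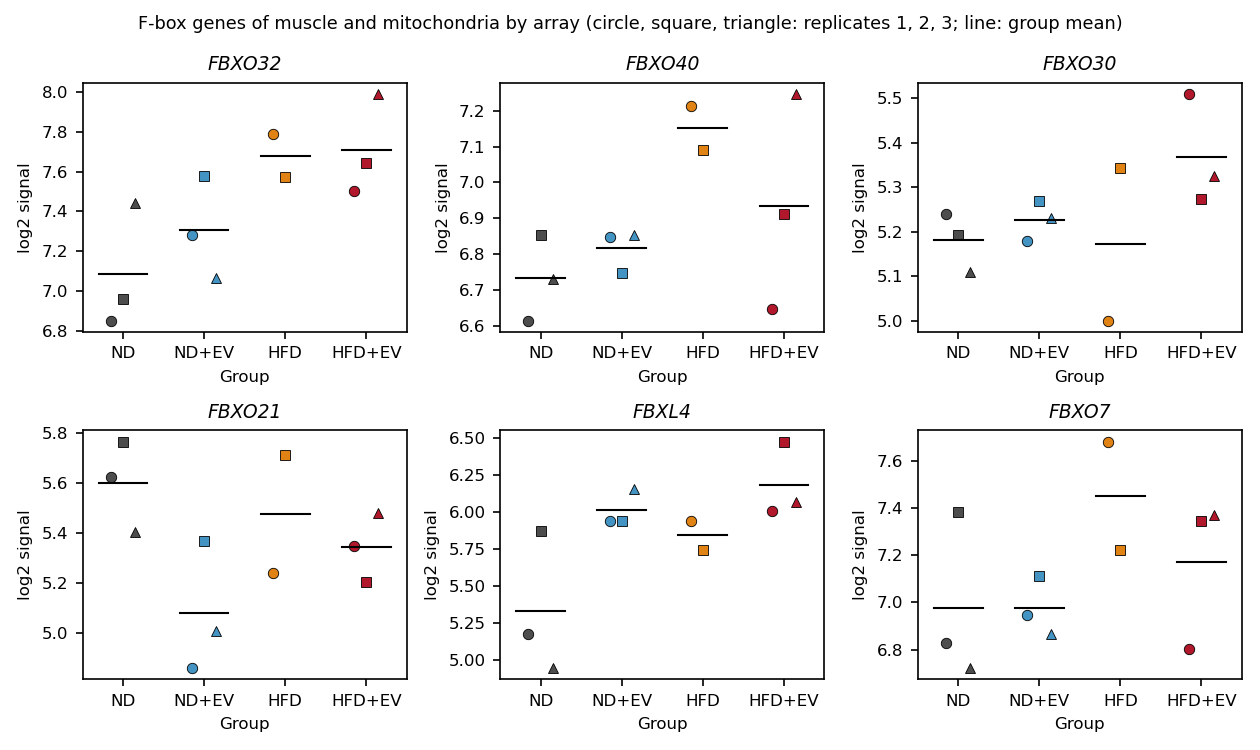
Log2 signal on each array for 6 F-box genes of muscle (FBXO32, FBXO40, FBXO30, FBXO21) and mitochondria (FBXL4, FBXO7), with 1 point an array, a different symbol for each replicate number and a line at the group mean. In FBXO32 and FBXO40 both HFD arrays lie above the 3 ND arrays, and in the other 4 genes these groups overlap.

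Other genes of the pathway were read as counts. All 25 proteasome genes were higher in HFD than in ND (median 0.77) and 3 passed by limma, each with an adjusted p of 0.0471: PSMD8 (1.85), PSMD12 (1.22) and PSMD14 (1.04), which is itself a deubiquitinase. These calls were lost with no filter, under cyclic loess, with a mean-variance trend, with array weights, with only the arrays compared, and without ND replicates 1 and 3, any 1 ND+EV array, HFD replicate 2, HFD+EV replicate 2 or HFD+EV replicate 3, where 0 probe sets passed. Ubiquitin and like proteins had 4 of 4 higher (median 0.99, UBB 1.11 and RPS27A 0.89; 0.55 without ND replicate 1 and 0.40 without ND replicates 1 and 3), E1 enzymes 6 of 7 (0.32, UBA1 0.70) and other deubiquitinases 16 of 21 (0.26, UCHL5 1.32), with PSMD14 the member that passed. The SCF and cullin core had 6 of 9 higher (0.15), F-box genes of other classes 7 of 7 (0.29) and other ligases 14 of 15 (0.32), and none of their members passed.

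Several measures moved with this comparison. The differences correlated with mean signal across the probe sets (r = 0.36, genes not being independent). Elsewhere r was 0.22 (ND+EV against ND), -0.17 (HFD+EV against HFD) and 0.19 (HFD+EV against ND+EV). For the EV difference under HFD minus that under ND it was -0.26. Under cyclic loess, HFD against ND had a UBE2 median of 0.23 with 19 of 23 higher. The FBXL median was 0.16 with 12 of 16 higher, the FBXO median 0.015 with its sign turned, and no member passed. All 25 proteasome genes were higher under that scaling too (median 0.52), as were 3 of 4 ubiquitin and like genes (0.59), but other ligases had 11 of 15 higher with a median of 0.083. Without ND replicates 1 and 3, 22 of 25 proteasome genes were higher (0.37). Without ND replicate 1 the UBE2 median was also 0.23 (18 of 23), and the USP median was 0.22 without that array and 0.035 without ND replicate 3. The level of 7 cardiomyocyte markers of 11 listed ran from -0.29 to -0.03 in ND and from 0.05 to 0.21 in HFD. Of these 7, 5 were higher in HFD, and ACTC1 and RYR2 were lower. The level of 6 fibroblast markers of 7 ran from -1.03 to 0.17 and from 0.11 to 0.87. That of 3 atrial markers (NPPA, MYL7 and SLN) ran from -1.04 to 0.15 and from 0.37 to 1.82. All 6 fibroblast and 3 atrial markers were higher. So were 4 of 5 mural (median 0.50), 5 of 5 endothelial (0.24) and 4 of 5 macrophage markers (0.41). Lower were 3 of 3 red cell, 3 of 3 adipocyte, 2 of 2 B cell and 4 of 5 T cell markers. No marker passed the adjusted threshold, and the part of these measures in the result was not tested.

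**Figure D4:**
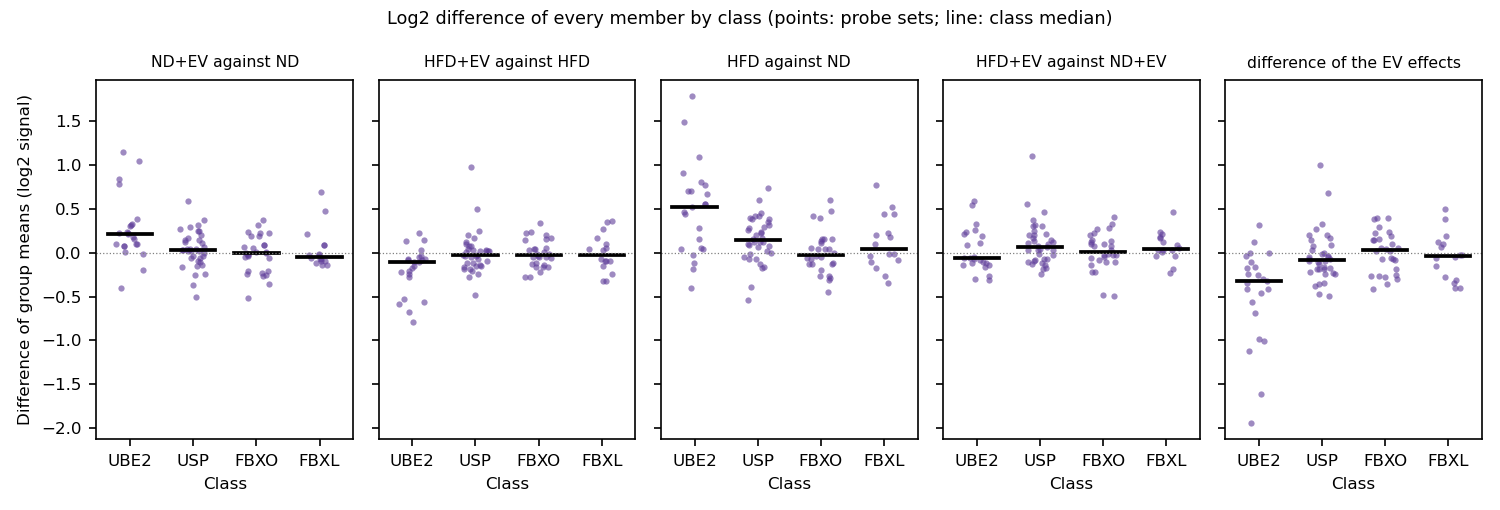
Difference of group means (log2 signal) for every member in each comparison, by class, with 1 point a probe set and a line at the class median. The UBE2 median is 0.52 in HFD against ND, 0.21 in ND+EV against ND and -0.11 in HFD+EV against HFD, and the FBXO median stays within 0.03 of 0 in all 5 panels.

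ND+EV was compared with ND for the response to EV without the high fat diet, a comparison that shares the ND arrays with the one above. The UBE2 class had 20 of 23 members higher in ND+EV, with a median of 0.21, beside 22 of 36 in USP (0.03), 13 of 28 in FBXO (-0.0036), 5 of 16 in FBXL (-0.05) and 47.6% of all probe sets (-0.01). No member passed by limma, as no probe set did (0%), and 10 members had an unadjusted p under 0.05, 8 of them higher, beside 8.51% of all probe sets (4.97% higher and 3.54% lower). Of the probe sets with 1 symbol, 49.3% were higher in ND+EV (median -0.0033). Without ND replicate 1 the UBE2 median was 0.13, with 17 of 23 higher. In the same comparison 6 of 6 fibroblast markers (median 0.37), 4 of 5 macrophage markers (0.31) and 6 of 7 cardiomyocyte markers (0.08) were higher and 4 of 5 mural markers lower (-0.29), none past the adjusted threshold, and their part in the result was not tested.

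UBE2L3 had 8.24, 8.76 and 8.98 in ND and 9.38, 9.47 and 9.65 in ND+EV. All 3 ND+EV arrays lay above the ND arrays, with a difference of 0.84 ± 0.18 (SE, limma adjusted p = 0.539), or 0.63 without ND replicate 1. UBE2B had 5.55, 6.04 and 5.66 in ND+EV, above its 3 ND values (1.14 ± 0.31 SE, limma adjusted p = 0.539). The UBE2B difference was 0.42 without ND replicates 1 and 3. UBE2D3 had 6.78, 7.61 and 6.82 in ND+EV, also without overlap (1.04 ± 0.38 SE, limma adjusted p = 0.551). In the UBE2 class 7 members were separated upward and 0 downward, beside 5.46% and 5.35% of all probe sets.

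USP2, a protease with a circadian rhythm, had 5.87, 6.31 and 6.09 in ND and 6.88, 6.68 and 6.48 in ND+EV, without overlap (0.59 ± 0.16 SE, limma adjusted p = 0.539). USP1, a protease of DNA repair, differed by 0.37 ± 0.15, with overlap, and USP20 by -0.50 ± 0.22, without. USP30 was lower in ND+EV in all 3 arrays, at 5.93, 6.04 and 6.01 (-0.37 ± 0.17 SE, limma adjusted p = 0.596).

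FBXL4 had 5.17, 5.87 and 4.95 in ND and 5.94, 5.94 and 6.15 in ND+EV (0.68 ± 0.22 SE, limma adjusted p = 0.548). ND replicate 2 nearly reached the lowest ND+EV array, and the difference was 0.95 without it, 0.49 without ND replicate 3 and 0.14 without ND replicates 1 and 3. FBXO21, whose product acts in innate signalling, had 5.62, 5.77 and 5.40 in ND and 4.86, 5.37 and 5.0 in ND+EV, all lower (-0.52 ± 0.18 SE, limma adjusted p = 0.548). FBXO32 (0.22), FBXO40 (0.08), FBXO30 (0.05) and FBXO7 (-0.0028) overlapped between these groups. FBXL17 had 0.47 in probe set 15266306 (-0.06 without ND replicates 1 and 3) and -0.03 in the other, FBXO11 0.36 (0.14 without ND replicate 2), FBXO9 0.23 and FBXL12 0.21, none of which passed. In other pathway genes, 22 of 25 proteasome genes were higher (median 0.39) and 4 of 4 ubiquitin and like genes (0.66), with none passing. The ubiquitin median was 0.39 without ND replicate 1, and 17 of 25 proteasome genes were higher without ND replicates 1 and 3 (0.15).

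**Figure D5:**
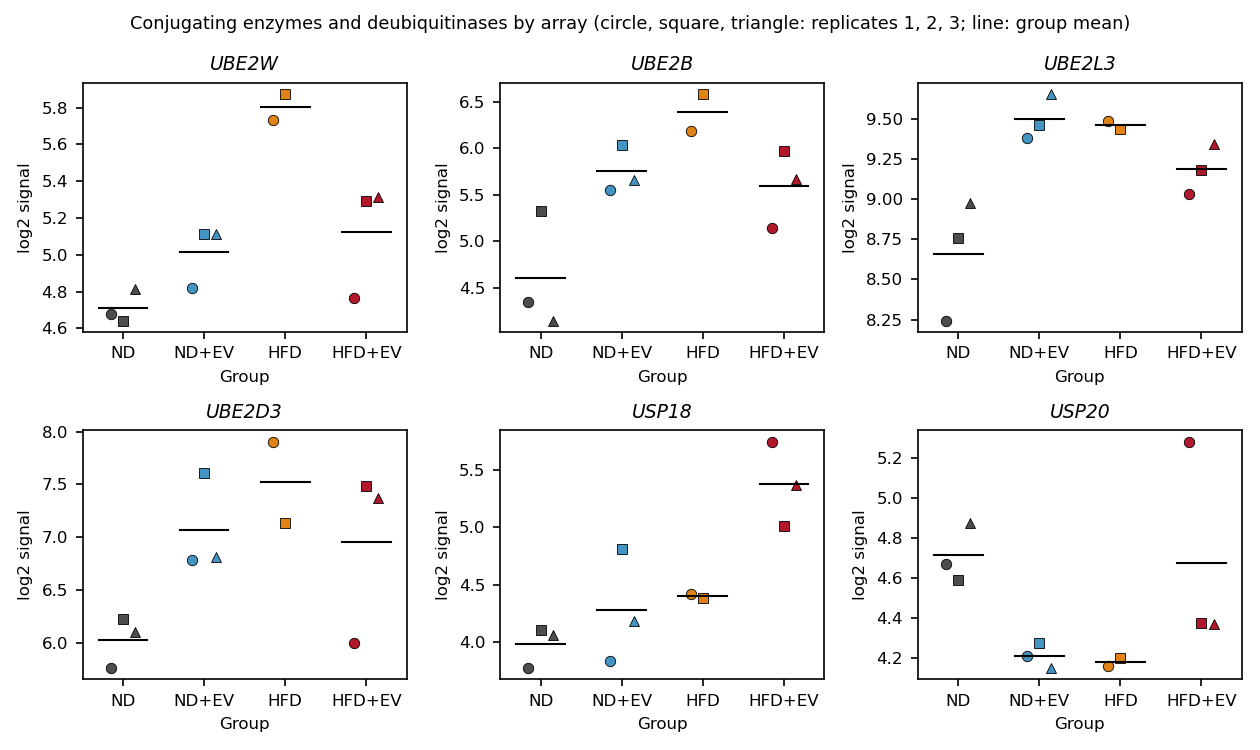
Log2 signal on each array for 4 conjugating enzymes (UBE2W, UBE2B, UBE2L3, UBE2D3) and 2 deubiquitinases (USP18, USP20), with 1 point an array, a different symbol for each replicate number and a line at the group mean. UBE2W and UBE2B are highest in both HFD arrays, USP18 is highest in the 3 HFD+EV arrays, and the HFD+EV mean of USP20 rests on replicate 1 at 5.28.

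HFD+EV was compared with HFD for the response to EV on the high fat diet, with the same HFD arrays as in HFD against ND. In the UBE2 class 4 of 23 members were higher in HFD+EV and 19 lower (median -0.11), in USP 17 of 36 higher (-0.03), in FBXO 12 of 28 (-0.03) and in FBXL 8 of 16 (-0.02), against 53.2% of all probe sets (0.01). No member and no probe set passed by limma (0%), and 6 members had an unadjusted p under 0.05, 1 higher and 5 lower, beside 5.54% of all probe sets (2.72% higher and 2.82% lower). Of the probe sets with 1 symbol, 49.7% were higher in HFD+EV (median -0.00095). Without HFD+EV replicate 1, 9 of 23 UBE2 members were higher (-0.07), and without HFD+EV replicate 3 the UBE2 median was -0.21. Here 6 of 6 fibroblast markers (median -0.27), 3 of 3 atrial markers (-1.44), 4 of 5 mural markers (-0.34) and 5 of 7 cardiomyocyte markers (-0.10) were lower, none past the adjusted threshold, and their part in the result was not tested.

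UBE2W had 4.76, 5.29 and 5.31 in HFD+EV, all below the HFD values of 5.73 and 5.87 (-0.68 ± 0.18 SE, limma adjusted p = 0.623). UBE2B, at 5.14, 5.97 and 5.67, also lay below both HFD arrays (-0.79 ± 0.34 SE, limma adjusted p = 0.895), as did UBE2J1 probe set 15193187 (-0.59 ± 0.20 SE, limma adjusted p = 0.777). In the UBE2 class 4 members were separated downward and 2 upward, beside 9.46% and 13.1% of all probe sets. UBE2D3 (-0.57) overlapped, with HFD+EV replicate 1 at 6.0 and the other HFD+EV arrays at 7.48 and 7.37.

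USP18, the interferon-induced protease that removes the ubiquitin-like protein ISG15, differed the other way. It had 4.42 and 4.39 in HFD and 5.74, 5.01 and 5.37 in HFD+EV, without overlap (0.97 ± 0.27 SE, 1.96-fold, limma adjusted p = 0.653). UBA7, the E1 enzyme for ISG15, differed by 1.11 ± 0.24 in the same direction (limma adjusted p = 0.564), while 6 of the 7 E1 genes were lower in HFD+EV. USP5, which takes apart free ubiquitin chains, had 6.10 and 6.23 in HFD and 5.69, 5.69 and 5.65 in HFD+EV, the tightest group of the gene (-0.49 ± 0.13 SE, limma adjusted p = 0.623).

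No F-box gene had an unadjusted p under 0.05 here. FBXO17 differed by -0.27 ± 0.14 and FBXL7 by -0.32 ± 0.18, both without overlap, and FBXL4 by 0.34 ± 0.25 with all HFD+EV arrays higher. FBXO32 differed by 0.03 and FBXO40 by -0.22, both with overlap. FBXO30 (0.20, or 0.026 without HFD replicate 1), FBXO8 (0.16) and FBXL16 (0.36, or 0.20 without HFD+EV replicate 1) did not pass.

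The comparison of HFD+EV with ND+EV, between diets after EV, had 9 of 23 UBE2 members higher (median -0.06) and 23 of 36 USP (0.07). In FBXO 14 of 28 were higher (0.0040) and in FBXL 12 of 16 (0.04). Over all probe sets 44.6% were higher (-0.02), and over those with 1 symbol 49.3% (-0.0036). No member and no probe set passed by limma (0%), and 4 members had an unadjusted p under 0.05, 2 in each direction, beside 7.36% of all probe sets (4.14% higher and 3.23% lower). The direction of the UBE2 class depended on HFD+EV replicate 1, without which 13 of 23 were higher with a median of 0.06. It also depended on the measure, as the class mean with all arrays was 0.02 higher in HFD+EV. Markers higher in HFD+EV were 6 of 6 fibroblast (median 0.17), 5 of 5 endothelial (0.22), 5 of 5 mural (0.37) and 6 of 7 cardiomyocyte (0.14). Lower were 3 of 3 red cell (-0.22) and 2 of 2 skeletal muscle markers (-0.40). None passed the adjusted threshold, and the part of these markers in the result was not tested.

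USP18 stood highest among the members. It had 3.84, 4.81 and 4.19 in ND+EV against 5.74, 5.01 and 5.37 in HFD+EV, without overlap (1.10 ± 0.24 SE, 2.14-fold, limma adjusted p = 0.425). UBE2E3 differed by 0.58 ± 0.21, USP15 by 0.55 ± 0.27 and UBE2D1 by 0.54 ± 0.25, with the HFD+EV arrays all above the ND+EV arrays. Separation in this comparison was seen for 15 members upward and 6 downward, beside 6.17% and 7.55% of all probe sets. FBXO11 differed by -0.48 ± 0.21, and the probe sets of FBXO33 by -0.49 (-0.27 without HFD+EV replicate 3) and 0.07. FBXO28 differed by 0.33 (0.17 without ND+EV replicate 2). FBXL17 gave opposite results, with 0.46 in probe set 15266306 and -0.23 in the other. FBXO32 was at 7.28, 7.58 and 7.07 in ND+EV and 7.5, 7.64 and 7.99 in HFD+EV, with overlap (0.40 ± 0.20 SE).

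The difference of the EV effects, the EV difference under HFD minus that under ND, was tested directly. It was below 0 for 21 of 23 UBE2 members (median -0.32), and above 0 for 11 of 36 USP (-0.08), 16 of 28 FBXO (0.03), 6 of 16 FBXL (-0.04) and 53.8% of all probe sets (0.03). No member and no probe set passed by limma (0%), and 6 members had an unadjusted p under 0.05, of which 5 were UBE2 members below 0, beside 8.42% of all probe sets (3.87% above 0 and 4.55% below). Of the probe sets with 1 symbol, 50.1% were above 0 (median 0.00096). Without HFD+EV replicate 1 the UBE2 median was -0.20, with 5 of 23 above 0. Below 0 as well were 6 of 6 fibroblast markers (median -0.68), 3 of 3 atrial markers (-1.63), 6 of 7 cardiomyocyte markers (-0.16) and 4 of 5 macrophage markers (-0.23), none past the adjusted threshold, and their part in the result was not tested.

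UBE2B had an EV difference of 1.14 under ND and -0.79 under HFD, which gives -1.94 ± 0.46 (SE, limma adjusted p = 0.572). The value was -1.61 ± 0.58 for UBE2D3, -1.12 ± 0.27 for UBE2L3, -0.98 ± 0.24 for UBE2W and -0.69 ± 0.27 for UBE2J1 probe set 15193187, with the same adjusted p. The other UBE2J1 probe set disagreed, at 0.32. USP20 went the opposite way, at 1.0 ± 0.32 (limma adjusted p = 0.572), or 0.70 without HFD+EV replicate 1, the array with its highest signal. The proteasome genes had 23 of 25 below 0 (median -0.52), and 4 of 4 ubiquitin and like genes (-0.93), with none passing. The proteasome median was -0.30 without HFD+EV replicate 1, and -0.03 with 13 of 25 below 0 when ND replicates 1 and 3 were left out too.

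Over all 4 groups together, the F test of limma passed no member and no probe set (0%). At an unadjusted p under 0.05 there were 19 members, 9 of them UBE2, 5 USP, 3 FBXO and 2 FBXL, beside 17.0% of all probe sets. UBE2W, USP18 and UBE2B had the smallest p among the members, with an adjusted p of 0.127 or more.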

How the data were processed

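Affymetrix whole-transcript arrays were hybridised from 50 ng of total RNA per the labels' protocols, and the authors deposited 1 normalized log2 value for each probe set and array. Transcriptome Analysis Console is named, without a version, in the submitters' processing notes. How signals were summarised and normalized, and the genome build, is not given in the sources used here; coordinates are left out. Gene names came from the annotation of the platform and can be out of date: 13157 probe sets had 1 symbol, 523 several and 13878 none. Of the 103 members, 100 matched a current gene table, all with the same symbol.

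With limma 3.58.1 (lmFit and eBayes, R 4.3.3), group means were fitted to all 11 arrays for the 20668 probe sets above the lowest 25% by mean signal. Groups came from the titles. The 5 contrasts and an F test were two-sided, adjusted by Benjamini-Hochberg over these probe sets, at a threshold of 0.05. The functions were tested on simulated data. No label states separate animals beyond the words biological replicate, so p-values measure the spread between these samples. The members, gene lists, tests and alternatives were chosen with earlier results of these data known, so no list is independent support. Named genes are the 3 members of each class with the smallest p in each contrast, every member that passed, and genes listed for their known role. Of the latter, some were not analysed here, among them FBXO25, UBE2F, UBE2G2, UBE2L6, UBE2M, UBE2V1, UBE2V2, USP8, USP14 and USP25. Not every gene under this rule is given for each contrast. In the difference of the EV effects, USP5, USP6NL, FBXO21, FBXO17, FBXO9, FBXL7, FBXL12 and FBXL20 were left out, and none of them passed. Other genes were named after their values were seen, to show an array or a group. Of a gene's probe sets the brightest was named, and disagreement was given. The class level was set to a mean instead of a median after the values were seen, and the counts of direction without single arrays or under cyclic loess, lists of other pathway genes included, were added then too.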

Additional observations from a re-analysis of the deposited data

Results flagged for a closer look

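In 4 members every EV array moved one way against its vehicle group under one diet and the opposite way under the other, which 346 of 20668 probe sets (1.67%) and 4 of 90 members did. For UBE2B the difference of the EV effects was -1.94 (1.14 under ND, -0.79 under HFD), for UBE2L3 -1.12 (0.84 and -0.28), for UBE2W -0.98 (0.30 and -0.68) and for USP20 1.0 (-0.50 and 0.50). The test of each difference did not pass (limma adjusted p = 0.572 for each). Over the alternatives run, the value nearest 0 was -0.99 for UBE2B, -0.75 for UBE2L3, -0.80 for UBE2W and 0.58 for USP20. For UBE2W, 2 of the ND+EV arrays (both at 5.11) were well above the highest ND array (4.81) and ND+EV replicate 1 (4.82) was just above it.

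UBE2L3 and USP20 also had diet differences in opposite directions under the injections without overlap, as 116 of 20668 probe sets (0.561%) and 2 of 90 members did; the value tested is the same, -1.12 and 1.0.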

How the results depend on the processing

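In HFD against ND, the 2 members that passed became 0 with no filter, under cyclic loess, with a mean-variance trend, with array weights, with only the arrays compared, without ND replicates 1 and 3, and without these and HFD+EV replicate 1, while 2 passed with the lowest 50% left out. Beside these members, 152 probe sets passed in the main fit and 214 with the lowest 50% left out. Leaving out 1 array gave 0 to 5 members, the 5 beside 1353 probe sets. Over the alternatives run for these genes, the adjusted p of UBE2W lay between 0.0213 and 0.276 and that of UBE2B between 0.0213 and 0.328. With the replicate number as a block, 6 members and 938 probe sets passed there, and no member passed elsewhere. Same-numbered arrays had correlations of deviations between -0.10 and 0.33, most of them above 0. They were not set against differently numbered arrays, so these values cannot decide whether the numbers mark a pairing. The main fit used no pairing, as no label states one. No alternative passed a member in any other comparison or in the F test. FBXL17 (15266306) in ND+EV against ND turned to -0.063 without ND replicates 1 and 3, also with HFD+EV replicate 1 left out, and ran from 0.22 to 0.74 over leaving out 1 array.

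Class medians that moved by more than the array spread were these. Under cyclic loess, HFD against ND gave 0.23 for UBE2, 0.015 for FBXO and 0.16 for FBXL, HFD+EV against ND+EV 0.026 for FBXO, and the difference of the EV effects 0.00023 for FBXO and -0.11 for FBXL. Without ND replicates 1 and 3, ND+EV against ND gave 0.025 for FBXO, HFD against ND 0.35 for UBE2, -0.056 for FBXO and 0.11 for FBXL, and the difference of the EV effects 0.049 for FBXL. With HFD+EV replicate 1 left out too, a choice made after seeing the data, the difference was 0.027 for FBXL and -0.0064 for FBXO, and HFD+EV against ND+EV gave 0.097 for FBXL. With array weights, FBXO was 0.020 in ND+EV against ND and FBXL -0.092 in the difference. With 1 probe set per gene, HFD against ND gave 0.014 for FBXO and 0.14 for FBXL, and HFD+EV against ND+EV 0.050 for FBXO and 0.10 for FBXL. Among members above the filter, FBXO was -0.049 in HFD+EV against HFD, 0.043 in HFD against ND, 0.050 in HFD+EV against ND+EV and -0.030 in the difference.

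Leaving out 1 array, UBE2 ran from 0.23 to 0.57 in HFD against ND. USP ran from 0.035 to 0.22 there and from -0.17 to -0.0060 in the difference. FBXO ran from -0.017 to 0.022 in ND+EV against ND, from -0.023 to -0.0062 in HFD+EV against HFD, from -0.048 to 0.036 in HFD against ND, from -0.018 to 0.037 in HFD+EV against ND+EV and from -0.011 to 0.080 in the difference. FBXL ran from -0.086 to 0.027 in HFD+EV against HFD, from -0.0085 to 0.066 in HFD against ND, from 0.015 to 0.097 in HFD+EV against ND+EV and from -0.092 to 0.0059 in the difference. Of 67 differences of named members, 20 moved by over 1.5 times when 1 array was left out and 0 changed sign. These 67 were picked for a small p in these same data, which favours a stable sign. Genes listed for their known role were counted only at an unadjusted limma p under 0.05. Outside the 67, UBE2N in ND+EV against ND went from 0.10 to -0.13 without ND replicate 1. Without 1 HFD array the group has 1 left, which is assumed to vary like the other groups. The causes of these shifts were not tested. Some alternatives have fewer arrays or probe sets by their construction. The number of arrays limits all of these, and signal over background was not analysed here.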
